A study of Rattus norvegicus with 9 samples.

Results

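Axon guidance ligands and receptors were followed across 3 kinds of cultured cell from adult Sprague Dawley rats. The members are the array features whose platform annotation gives a single gene symbol of the semaphorin (classes 3 to 7), plexin, neuropilin, ephrin, Eph receptor, Slit, Robo, netrin or Unc5 families, with the feature of highest mean kept for each gene. This gave 53 of the 14506 genes measured, made up of 16 semaphorins, 2 neuropilins, 5 plexins, 7 ephrins, 11 Eph receptors, 2 Slits, 4 Robo receptors, 3 netrins and 3 Unc5 receptors. By role, 28 were ligands and 25 receptors. Sema4c alone had a second feature. Plxna4, Epha4, Slit2 and Ntn4 were not analysed here, and neither were some other genes of these families, such as Ephb4, Plxna1 and Sema4d.

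The groups were Schwann cells grown from the sciatic nerve, Schwann cells grown from SKPs, and the SKPs themselves, with 3 independent samples and 3 arrays of each on Rat Gene 1.0 ST arrays from Affymetrix. SKPs are skin-derived precursors, cells of the dermis that grow as floating spheres, taken here from dorsal trunk skin and collected after 1 or 2 passages. Both kinds of Schwann cell were plated in Schwann cell growth medium, passaged once and grown until confluent. The labels name no transgene or drug. They give dermis as the tissue of all 9 samples, the sciatic nerve cells included, and describe the 3 SKP arrays as a reanalysis of samples deposited earlier, so a difference from SKPs cannot be told apart from a difference between those hybridisations, or between spheres and confluent cultures.

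Guidance cues are secreted or membrane-bound proteins that attract or repel growing axons and migrating cells. Class 3 semaphorins are secreted and signal through complexes of a neuropilin and a plexin, whereas other semaphorins bind plexins directly. Ephrins are held on the cell surface and bind Eph receptors on neighbouring cells, with signals passing both ways. Slits bind Robo receptors, and netrins bind Dcc and the Unc5 receptors. In peripheral nerve, contact through ephrins and Eph receptors is known to sort Schwann cells from fibroblasts after injury, and Sema4F has been described in the contact between Schwann cells and axons.

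Values are log2 signals as deposited, differences are differences of group means on that log2 scale with the standard error (SE), and a gene is called when limma's moderated test gave a Benjamini-Hochberg adjusted p under 0.05 over all 14506 genes. The arrays did not share a scale as deposited. The median feature lay between 6.82 and 6.87 on the nerve arrays, between 6.33 and 6.44 on the SKP-derived arrays and between 6.20 and 6.27 on the SKP arrays, so that the median gene was 0.46 higher in nerve Schwann cells than in SKPs. After cyclic loess, which removes such intensity-dependent offsets, that median difference was -0.03. Values after cyclic loess are therefore given for part of the results, mainly where a call changed. A nerve difference given only as deposited may still hold the offset. For example, Ephb1 was 2.31 higher as deposited and 1.85 after cyclic loess, and Plxnb2 gave -0.87 and -1.11. On the nerve arrays 1560 to 1967 of 29214 features held exactly the same value on 2 arrays, against 0 to 23 for all other pairs, and every pair still differed over most features. The number of arrays limits the precision of every value below.

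The largest differences separated both kinds of Schwann cell from SKPs in the same direction. Under both scalings, 8 members were higher in nerve and in SKP-derived Schwann cells than in SKPs, namely Sema3b, Sema4c, Plxnb3, Plxnd1, Ephb1, Ephb2, Ephb3 and Efna4. Under both scalings, 11 members were lower in both, namely Sema3a, Sema3c, Sema3d, Sema3f, Sema5a, Plxnb2, Efnb2, Robo1, Robo2, Ntn1 and Unc5b. No member was called in opposite directions. Among all genes, 14.1% were called higher in both under both scalings and 13.4% lower in both. Both comparisons use the same 3 SKP arrays, so the shared direction is not 2 independent observations.

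Counted over all 53 members, nerve Schwann cells had 26 higher and 11 lower than SKPs as deposited, where 49.7% of all genes were called higher and 14.9% lower. The members' shares were 49.1% and 20.8%. After cyclic loess 16 members were higher and 14 lower, 30.2% and 26.4%, against 22.4% and 25.6% of all genes. The median member difference was 0.60 as deposited and 0.02 after cyclic loess, against 0.46 and -0.03 for all genes. Of the 27 members below the median gene's level (7.18), 16 were higher and 2 lower as deposited, but 8 and 5 after cyclic loess, whereas the 26 brighter members gave 10 and 9, then 8 and 9.

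SKP-derived Schwann cells had 11 members higher and 16 lower than SKPs as deposited, 20.8% and 30.2%, against 19.3% and 22.3% of all genes. After cyclic loess the counts were 9 and 17, 17.0% and 32.1%, against 18.6% and 23.9% of all genes. The median member difference was 0.09 as deposited and 0.04 after cyclic loess, against -0.01 and -0.03 for all genes. Ligands contributed 5 higher and 9 lower, and receptors 6 higher and 7 lower. In nerve cells ligands gave 13 higher and 7 lower and receptors 13 and 4 as deposited, and 7 and 8 against 9 and 6 after cyclic loess. A further 8 members were called higher in nerve cells under both scalings without passing under both in SKP-derived cells, as were 8.27% of all genes. These were Sema3e, Sema4f, Plxna3, Epha8, Robo3, Robo4, Ntn3 and Ntn5. After cyclic loess none of these 8 was called between the Schwann cell groups. Leaving out a single array gave Sema3e, Sema4f, Plxna3 or Ntn5 a call in SKP-derived cells as deposited, depending on the array.

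Promoter sequence from RefSeq (assembly GRCr8) is shown for 4 of these genes, 2 from each direction, because each holds a short motif of a kind often examined in Schwann cell or mesenchymal genes. The windows are the 250 bases before the annotated start, written 5′ to 3′ on the gene's strand, and capitals mark the motif found. ACAATG and ACAAAG are cores bound by SOX factors, and CAGCTG is an E-box. Ephb2 (chr5:154360425-154360674, minus strand) holds ACAATG beginning 193 bases before the start. Plxnb3 (chrX:156646624-156646873, plus strand) holds CTTTGT, which is ACAAAG on the opposite strand, 200 bases before it. Efnb2 (chr16:87484965-87485214, plus strand) holds CAGCTG 208 bases before its start, and Robo2 (chr11:26526413-26526662, minus strand) holds it 77 bases before.
Ephb2: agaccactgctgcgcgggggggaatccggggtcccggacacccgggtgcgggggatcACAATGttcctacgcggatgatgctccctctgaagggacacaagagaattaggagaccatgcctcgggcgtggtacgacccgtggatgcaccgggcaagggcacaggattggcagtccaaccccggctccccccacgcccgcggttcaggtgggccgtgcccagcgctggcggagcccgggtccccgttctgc
Plxnb3: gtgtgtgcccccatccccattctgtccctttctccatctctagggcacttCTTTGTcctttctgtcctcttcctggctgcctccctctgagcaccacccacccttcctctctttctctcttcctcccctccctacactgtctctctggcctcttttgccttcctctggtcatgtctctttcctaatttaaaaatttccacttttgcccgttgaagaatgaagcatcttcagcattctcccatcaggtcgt
Efnb2: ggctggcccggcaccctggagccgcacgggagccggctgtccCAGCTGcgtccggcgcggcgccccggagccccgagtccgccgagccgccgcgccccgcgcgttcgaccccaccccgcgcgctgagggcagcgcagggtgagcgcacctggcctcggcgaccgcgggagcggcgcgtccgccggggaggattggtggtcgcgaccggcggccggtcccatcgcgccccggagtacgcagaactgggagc
Robo2: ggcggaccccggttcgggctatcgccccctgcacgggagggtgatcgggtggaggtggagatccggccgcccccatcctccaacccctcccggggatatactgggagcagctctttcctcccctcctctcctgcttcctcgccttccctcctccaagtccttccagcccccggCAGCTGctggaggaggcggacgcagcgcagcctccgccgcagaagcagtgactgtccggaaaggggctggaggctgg

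The promoter table held 43 of the 53 members, 7 of the 8 that were higher in both Schwann cell groups and 7 of the 11 that were lower. Searched on both strands, ACAAAG occurred in 2 of the 7 higher genes (Efna4 and Plxnb3) and 2 of the 7 lower genes (Plxnb2 and Sema3d), against 16.3% of the 33469 windows of that length. ACAATG occurred in 2 higher genes (Ephb1 and Ephb2) and 1 lower gene (Unc5b), against 11.1% of windows. CAGCTG occurred in 1 higher gene (Ephb3) and 2 lower genes (Efnb2 and Robo2), against 12% of windows. GGAATG, the core bound by TEAD factors, occurred in 0 of either set and in 12.1% of windows. Each window printed above holds 1 of the 4 motifs. The median GC content was 60.0% for the higher genes and 63.2% for the lower genes, against 62.2% for all members and 51.2% over all windows. These matches describe letters only.

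**Figure D1:**
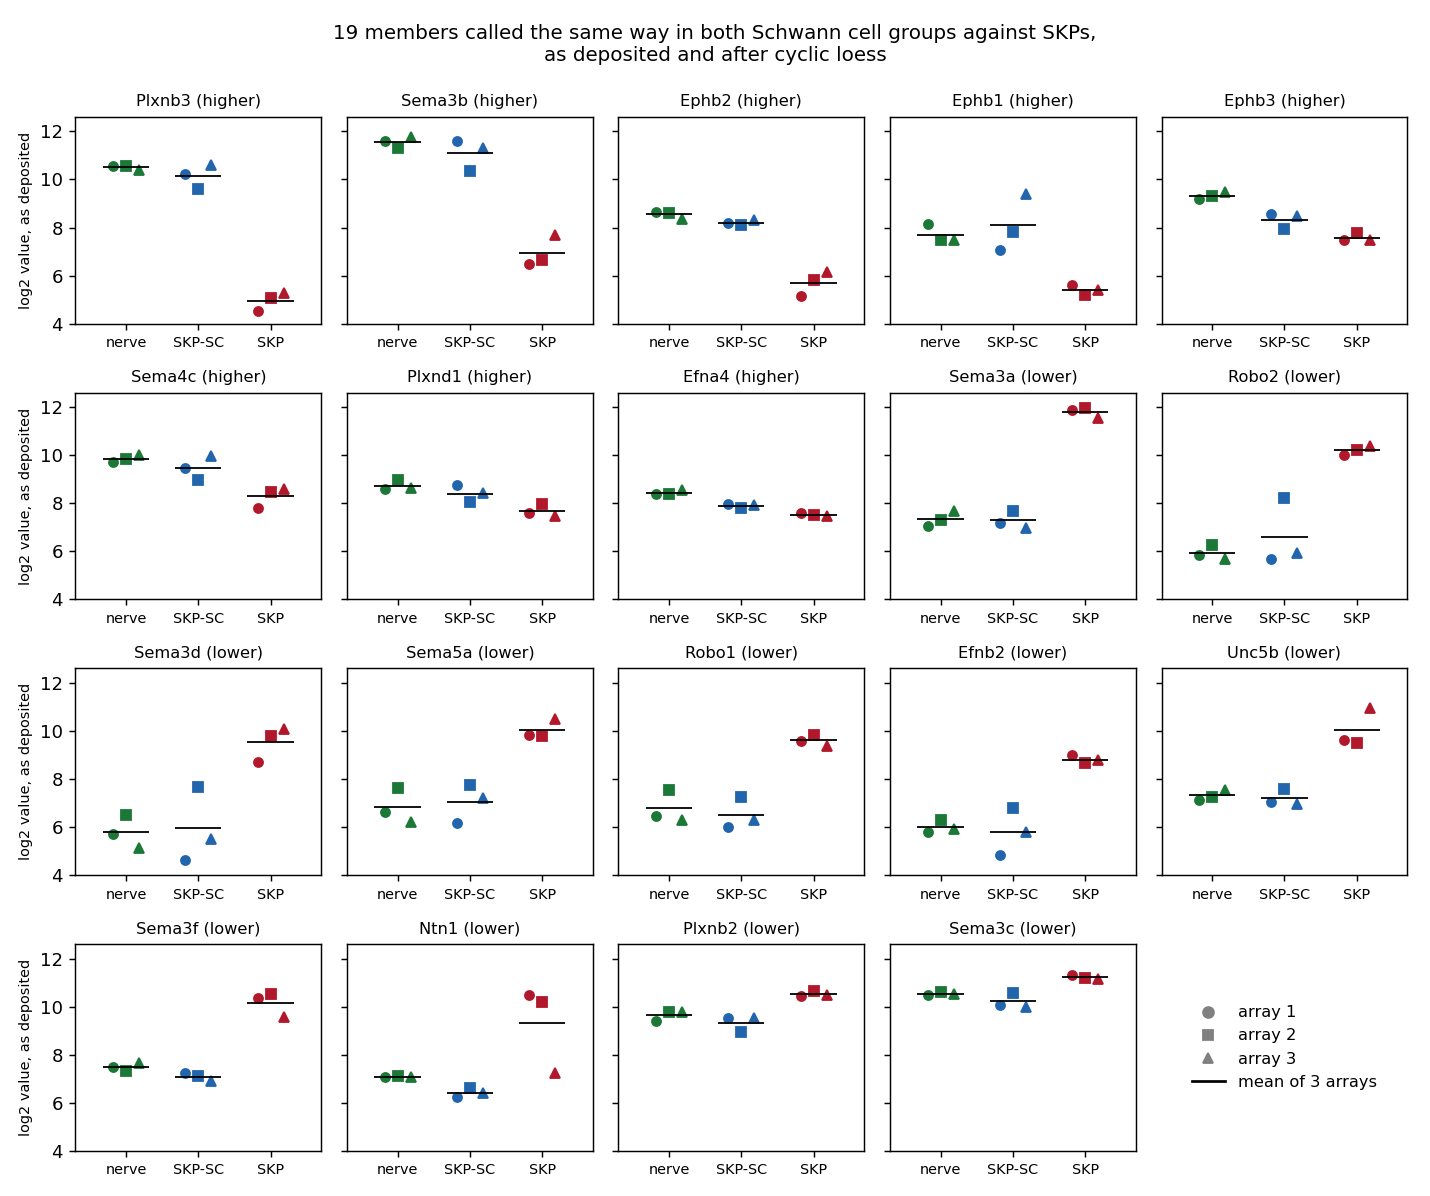
Log2 value as deposited (vertical axis) of the 19 members called the same way in both Schwann cell groups, by group (horizontal axis: nerve, nerve Schwann cells; SKP-SC, SKP-derived Schwann cells; SKP). Each point is 1 array, its shape the array number, and the line is the mean of the 3 arrays. Plxnb3 and Sema3b lie far above the SKP arrays in both Schwann cell groups, Sema3a lies far below, and SKP-derived array 2 stands above its group for Robo2, Sema3d and Efnb2.

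Among the ligands, the semaphorins held large differences in both directions. Sema3b, a secreted class 3 semaphorin, measured 11.59, 11.32 and 11.76 in nerve Schwann cells, 11.58, 10.34 and 11.32 in SKP-derived Schwann cells, and 6.49, 6.66 and 7.70 in SKPs. Every Schwann cell array lay above every SKP array. The nerve difference from SKPs was 4.61 (SE 0.37, limma adjusted p = 1.97e-05) and the SKP-derived difference 4.13 (SE 0.37, adjusted p = 3.89e-05), or 20.7-fold and 16.8-fold after cyclic loess.

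Sema3a, Sema3c, Sema3d and Sema3f of the same class were lower, and Sema3e was not. Sema3a, the classical repellent of sensory and sympathetic axons, measured 7.03, 7.30 and 7.68 in nerve Schwann cells, 7.19, 7.69 and 6.99 in SKP-derived cells, and 11.88, 11.96 and 11.54 in SKPs. The SKP arrays were all above the others by a wide margin, and the 2 Schwann cell groups overlapped. The differences were -4.46 (SE 0.23, limma adjusted p = 2.18e-06) for nerve and -4.50 (SE 0.23, adjusted p = 2.26e-06) for SKP-derived cells, so that Sema3a was 26.4-fold and 22.6-fold lower after cyclic loess.

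Sema3f, a ligand that favours neuropilin-2, measured 7.51, 7.32 and 7.64 in nerve cells, 7.22, 7.13 and 6.89 in SKP-derived cells, and 10.37, 10.54 and 9.56 in SKPs. Its differences were -2.67 (SE 0.24, limma adjusted p = 3.37e-05) and -3.08 (SE 0.24, adjusted p = 1.81e-05). Sema3f and Sema3b are close on the chromosome, with 3 coding genes between them in the RefSeq order, yet they lay on opposite sides of SKPs. Sema3c measured 10.49, 10.59 and 10.52 in nerve cells, 10.08, 10.57 and 10.003 in SKP-derived cells, and 11.32, 11.21 and 11.13 in SKPs. It remained a bright feature in all 3 groups, with smaller differences of -0.69 (SE 0.16, limma adjusted p = 0.00485) and -1.001 (SE 0.16, adjusted p = 0.00106).

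Sema3d, which has no coding gene between it and Sema3a in the RefSeq order, was the most uneven of the lowered semaphorins. It measured 5.73, 6.48 and 5.11 in nerve cells, 4.64, 7.68 and 5.50 in SKP-derived cells, and 8.72, 9.77 and 10.08 in SKPs. SKP-derived array 2 stood well above its 2 partners, although still below every SKP array. The differences were -3.75 (SE 0.71, limma adjusted p = 0.00138) and -3.58 (SE 0.71, adjusted p = 0.00307), and without SKP-derived array 2 the latter was -4.45 (adjusted p = 0.000269). Sema5a, a transmembrane semaphorin for which plexin-B3 is a described receptor, measured 6.63, 7.60 and 6.22 in nerve cells, 6.16, 7.75 and 7.21 in SKP-derived cells, and 9.83, 9.78 and 10.49 in SKPs. Its differences were -3.21 (SE 0.44, limma adjusted p = 0.000274) and -2.99 (SE 0.44, adjusted p = 0.000628).

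Sema3e and Sema4f were called higher than SKPs in nerve Schwann cells under both scalings, and in SKP-derived cells under neither. As deposited, an SKP-derived call did appear for Sema3e without nerve array 3 and for Sema4f without SKP-derived array 3. Sema3e, a ligand of plexin-D1 that needs no neuropilin, measured 7.33, 7.70 and 9.24 in nerve cells, 6.30, 6.94 and 5.83 in SKP-derived cells, and 4.97, 5.44 and 5.82 in SKPs. The nerve arrays were above all SKP arrays, with array 3 the highest, and the SKP-derived arrays lay only just above them. The nerve difference was 2.68 (SE 0.47, limma adjusted p = 0.000999) as deposited and 2.12 (adjusted p = 0.00593) after cyclic loess, whereas the SKP-derived difference was 0.95 (SE 0.47, adjusted p = 0.14). Sema3e has 4 coding genes between it and Sema3c, which was lower than SKPs in both groups.

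Sema4f, a transmembrane semaphorin, measured 7.70, 7.59 and 8.53 in nerve cells, 7.18, 6.15 and 5.42 in SKP-derived cells, and 5.86, 5.20 and 4.97 in SKPs. The SKP-derived arrays were spread from the SKP range up towards the nerve range. The nerve difference was 2.60 (SE 0.43, limma adjusted p = 0.000733) as deposited and 2.01 (adjusted p = 0.0044) after cyclic loess, and the SKP-derived difference was 0.91 (SE 0.43, adjusted p = 0.122). The direct difference between the Schwann cell groups is given with the other members below, since a call in 1 group alone does not separate them.

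Sema4c, a ligand of plexin-B2, measured 9.72, 9.85 and 10.004 in nerve cells, 9.45, 8.97 and 9.96 in SKP-derived cells, and 7.81, 8.48 and 8.57 in SKPs. The differences were 1.57 (SE 0.27, limma adjusted p = 0.000863) and 1.17 (SE 0.27, adjusted p = 0.00707). The second feature of this gene gave 0.66 (adjusted p = 0.0481) and 0.11 (adjusted p = 0.749), so the 2 features disagree on SKP-derived cells, and with their mean the SKP-derived difference of Sema4c was 0.64 (adjusted p = 0.0717). Sema4g measured 7.64, 7.70 and 7.38, then 8.37, 7.16 and 7.82, against 6.90, 6.93 and 5.37 in SKPs. Its differences were 1.17 (SE 0.43, limma adjusted p = 0.0347) and 1.38 (SE 0.43, adjusted p = 0.0268), SKP array 3 was the lowest, and the nerve call ended after cyclic loess (0.76, adjusted p = 0.172). Without SKP array 3, the nerve difference of Sema4g was 0.66 (adjusted p = 0.0828) and the SKP-derived difference 0.87 (adjusted p = 0.0463), and without SKP-derived array 1 or 3 the latter was 1.09 or 1.37 (adjusted p = 0.0964 or 0.0655). The nerve call of Sema4g also ended without SKP-derived array 3 or any nerve array, with adjusted p up to 0.0872.

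The remaining semaphorins differed less. Sema6d, a membrane-bound ligand of plexin-A1, measured 9.88, 9.77 and 9.52, then 10.34, 9.69 and 9.42, against 9.37, 9.63 and 8.99, and its differences of 0.39 (SE 0.25, limma adjusted p = 0.193) and 0.48 (SE 0.25, adjusted p = 0.151) did not pass. Sema7a, held on the membrane by a lipid anchor, was bright in all groups and gave 0.40 (limma adjusted p = 0.322) and -0.19 (adjusted p = 0.672). Sema4a was called lower in SKP-derived cells (-0.88, limma adjusted p = 0.0154), and in nerve cells under each of the 3 other scalings (-0.77, adjusted p = 0.0216, after cyclic loess) but not as deposited (-0.13, adjusted p = 0.636). Sema6c was called lower in SKP-derived cells (-0.56, limma adjusted p = 0.0425), and in nerve cells after median centring (-0.56, adjusted p = 0.043) but not as deposited, where the nerve difference was 0.05. The SKP-derived call was lost when any array other than SKP-derived array 1 was left out. Sema5b and Sema6b were called higher in nerve cells as deposited (0.85 and 0.99, limma adjusted p = 0.00857 and 0.00723) but not after cyclic loess (0.18 and 0.47, adjusted p = 0.583 and 0.151). Over the 16 semaphorins, 7 were higher and 5 lower in nerve cells as deposited, against 49.7% and 14.9% of all genes, and 4 and 6 after cyclic loess, against 22.4% and 25.6%. In SKP-derived cells 3 were higher and 7 lower under both scalings, against 19.3% and 22.3% of all genes as deposited and 18.6% and 23.9% after cyclic loess.

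Of the semaphorin receptors, plexin-B3 stood farthest from SKPs among all 53 members as deposited and after cyclic loess, while after median centring Sema3a was farther in nerve cells (-5.06 against 4.94). Plxnb3 measured 10.56, 10.55 and 10.41 in nerve Schwann cells, 10.25, 9.62 and 10.59 in SKP-derived cells, and 4.55, 5.07 and 5.26 in SKPs. The 2 Schwann cell groups overlapped, and every SKP array lay far below both. The differences were 5.55 (SE 0.26, limma adjusted p = 1.41e-06) and 5.19 (SE 0.26, adjusted p = 2.26e-06), or 38.6-fold and 37.1-fold after cyclic loess. Its promoter window is the second of those printed above. Its described ligand Sema5a was among the genes lower in both Schwann cell groups.

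The other plexins moved less. Plxnd1, the receptor of Sema3e, measured 8.58, 8.96 and 8.61, then 8.74, 8.03 and 8.40, against 7.60, 7.95 and 7.46 in SKPs. Its differences were 1.05 (SE 0.21, limma adjusted p = 0.00202) and 0.72 (SE 0.21, adjusted p = 0.0219), and after median centring of the arrays neither passed (0.45, adjusted p = 0.117, and 0.59, adjusted p = 0.0537). Leaving out SKP-derived array 1 or 3, or SKP array 1 or 3, also ended the SKP-derived call of Plxnd1, with adjusted p up to 0.0789. Plxnb2, the receptor of several class 4 semaphorins, measured 9.40, 9.76 and 9.77, then 9.52, 8.95 and 9.53, against 10.44, 10.65 and 10.47, and was lower in both groups (-0.87, SE 0.19, limma adjusted p = 0.00284, and -1.18, SE 0.19, adjusted p = 0.000921). Plxna3 was higher in nerve cells (1.28, SE 0.38, limma adjusted p = 0.0146, and 0.99, adjusted p = 0.0469, after cyclic loess), and after median centring it did not pass (0.68, adjusted p = 0.189). Here SKP array 3 at 8.68 lay close to the nerve arrays, and without SKP array 2 its adjusted p was 0.0525. Without SKP array 3 the nerve difference of Plxna3 was 1.79. Plxna2 was lower in SKP-derived cells (-0.93, SE 0.33, limma adjusted p = 0.0492) and, under each of the 3 other scalings but not as deposited, in nerve cells (-1.06, adjusted p = 0.0283, after cyclic loess, and -0.58, adjusted p = 0.151, as deposited). Leaving out any array but SKP-derived array 2 or SKP array 3 ended the deposited SKP-derived call of Plxna2, and without SKP-derived array 1 its difference was -0.57 (adjusted p = 0.158).

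The neuropilins, co-receptors of the class 3 semaphorins, were present in all groups. Nrp1 measured 8.25, 8.62 and 8.34 in nerve cells, 7.50, 7.62 and 7.18 in SKP-derived cells, and 8.09, 8.25 and 7.87 in SKPs. SKP-derived cells were the lowest group, with no array reaching the SKP range. The SKP-derived difference was -0.64 (SE 0.17, limma adjusted p = 0.015), the nerve difference 0.33 (SE 0.17, adjusted p = 0.112), and without SKP array 2 the former was -0.55 (adjusted p = 0.0508). Nrp2 measured 10.83, 10.67 and 10.67, then 10.42, 9.06 and 10.54, against 10.48, 10.80 and 11.37, with SKP-derived array 2 far below its group. Its differences were -0.16 (SE 0.37, limma adjusted p = 0.724) and -0.87 (SE 0.37, adjusted p = 0.087). After cyclic loess the Nrp2 difference in SKP-derived cells was called (-0.98, adjusted p = 0.0467), though not after median centring or quantile normalization, and without SKP-derived array 2 the deposited difference was -0.40 (adjusted p = 0.217).

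**Figure D2:**
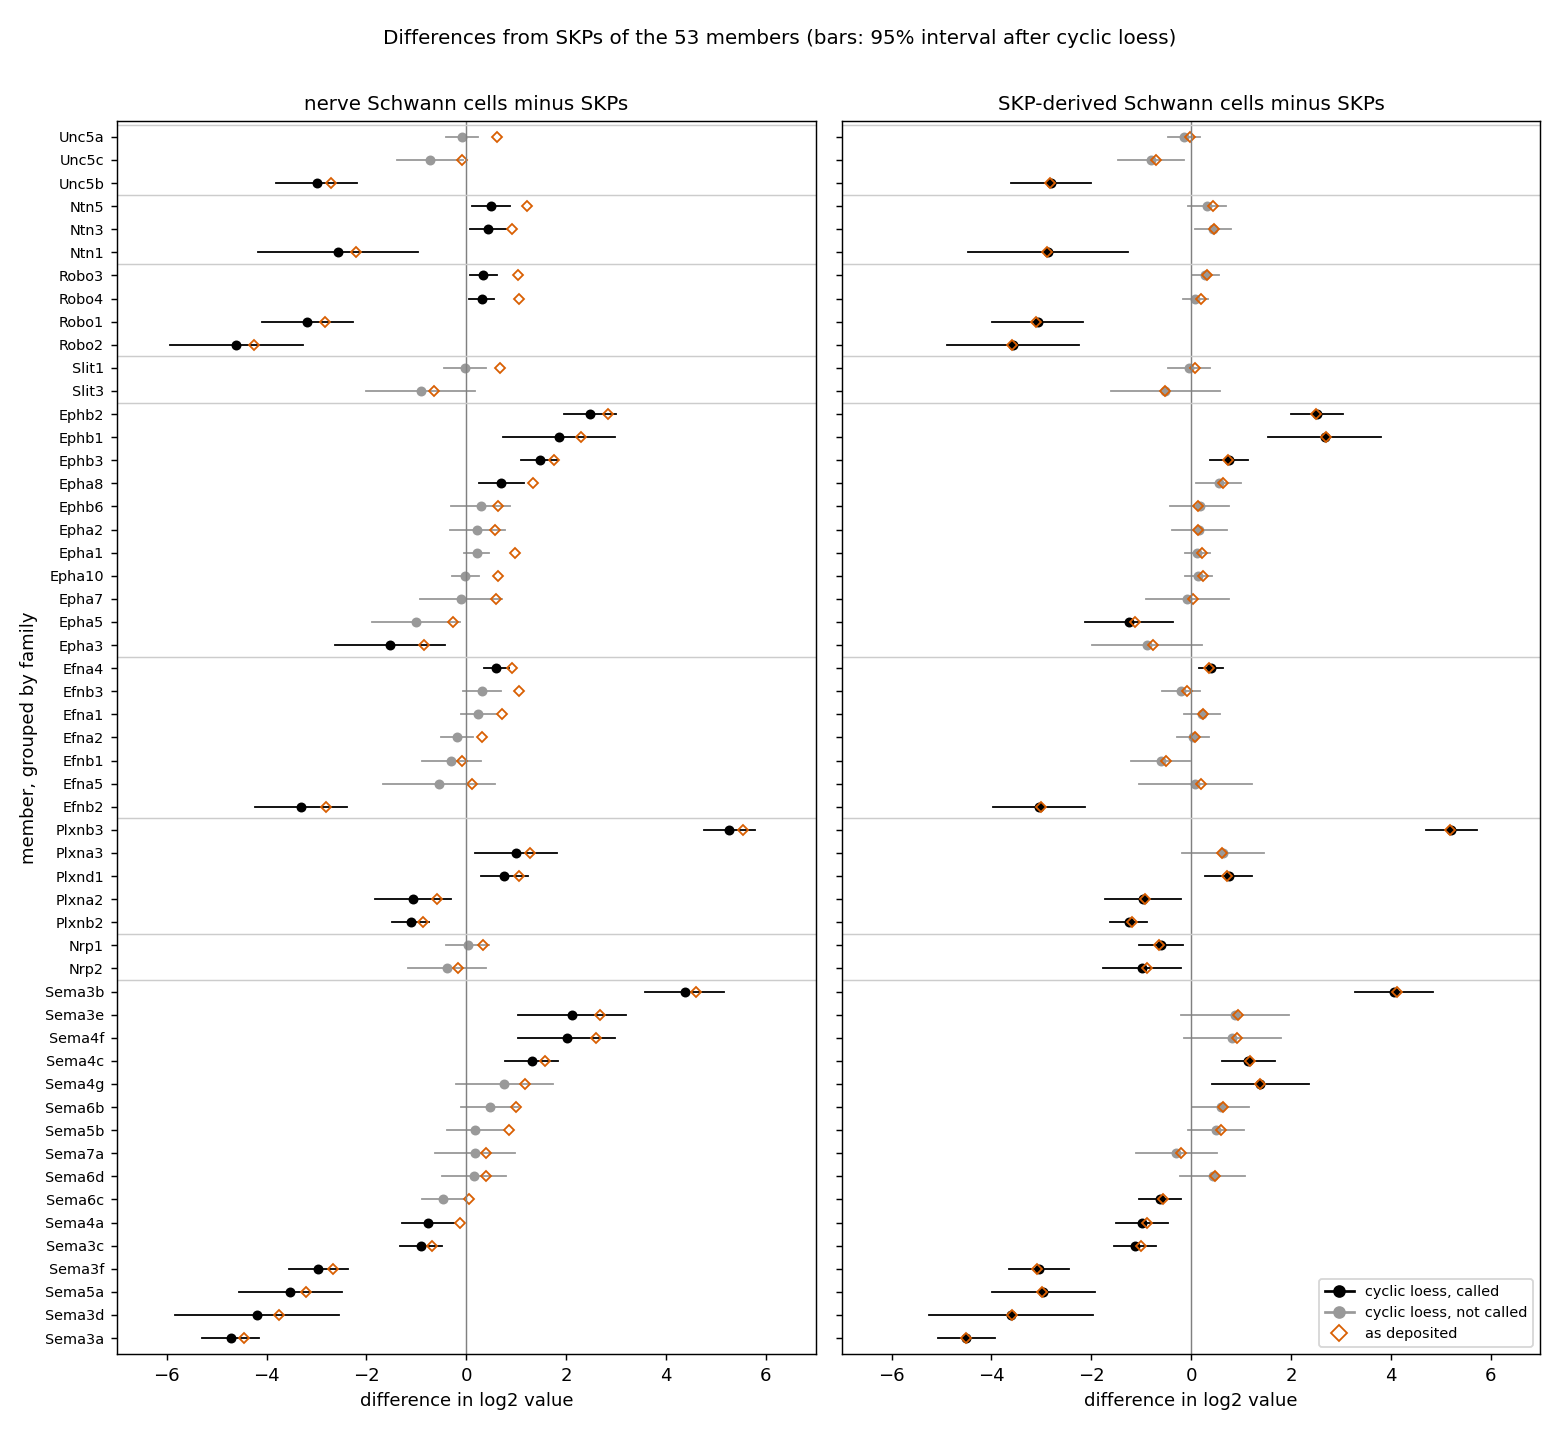
Difference in log2 value from SKPs (horizontal axis) of all 53 members, grouped by family (vertical axis), for nerve Schwann cells on the left and SKP-derived Schwann cells on the right. Circles are values after cyclic loess with their 95% interval, black where called, and open diamonds are the values as deposited. On the left the diamonds lie to the right of the circles, the offset of the nerve arrays, while Plxnb3 at 5.27 and Sema3a at -4.72 after cyclic loess mark the ends.

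Among the Eph receptors, 3 EphB receptors were higher in both Schwann cell groups under both scalings. Ephb2, whose signalling on Schwann cells is known to make them cluster when they meet nerve fibroblasts, measured 8.66, 8.61 and 8.36 in nerve cells, 8.19, 8.12 and 8.30 in SKP-derived cells, and 5.14, 5.80 and 6.16 in SKPs. The Schwann cell arrays were tightly grouped and far above the SKP arrays. The differences were 2.84 (SE 0.23, limma adjusted p = 2.07e-05) and 2.50 (SE 0.23, adjusted p = 4.61e-05), or 5.55-fold and 5.75-fold after cyclic loess.

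Ephb1 measured 8.13, 7.49 and 7.49 in nerve cells, 7.05, 7.82 and 9.40 in SKP-derived cells, and 5.61, 5.18 and 5.40 in SKPs. The SKP-derived arrays were spread widely, with array 3 the highest of all 9. The differences were 2.31 (SE 0.49, limma adjusted p = 0.00266) and 2.69 (SE 0.49, adjusted p = 0.002). Ephb3 measured 9.19, 9.33 and 9.46 in nerve cells, 8.54, 7.92 and 8.48 in SKP-derived cells, and 7.48, 7.79 and 7.46 in SKPs. The 3 groups did not overlap, and SKP-derived cells lay between the others. The differences of Ephb3 were 1.75 (SE 0.19, limma adjusted p = 7.73e-05) and 0.74 (SE 0.19, adjusted p = 0.0118).

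The EphA receptors were mostly dim and gave smaller differences. Epha8 measured 7.12, 6.89 and 7.04, then 6.40, 6.55 and 6.08, against 5.59, 5.37 and 6.12. It was higher in nerve cells (1.33, SE 0.21, limma adjusted p = 0.000501, and 0.70, adjusted p = 0.0182, after cyclic loess), and in SKP-derived cells as deposited only (0.65, adjusted p = 0.0308, against 0.55, adjusted p = 0.0523). The latter call was lost without SKP-derived array 1 or 2, or SKP array 1 or 2, with adjusted p up to 0.0998. Epha5 measured 5.77, 5.77 and 5.70, then 4.62, 5.29 and 4.74, against 5.82, 5.21 and 6.98. SKP array 3 set it apart, since the SKP-derived difference was -1.12 (SE 0.38, limma adjusted p = 0.0392) and -0.63 (adjusted p = 0.0611) without that array, and the nerve difference was -0.26 (SE 0.38, adjusted p = 0.569). Leaving out any other array but SKP-derived array 2 or SKP array 2 also ended the Epha5 call. Epha1, Epha10 and Ephb6 were called higher in nerve cells as deposited (0.97, 0.63 and 0.64, limma adjusted p = 0.00011, 0.00185 and 0.0448) but not after cyclic loess (0.21, -0.02 and 0.29; Epha1 kept its call after median centring), where Epha10 lay on the other side of 0. The Ephb6 call also ended without nerve array 1 or 2, any SKP-derived array or SKP array 3, with adjusted p up to 0.152, and its difference without SKP array 3 was 0.34. Epha3 was not called in nerve cells as deposited (-0.85, limma adjusted p = 0.161) but was lower after cyclic loess (-1.54, adjusted p = 0.0278), median centring (-1.45, adjusted p = 0.031) and quantile normalization (-1.51, adjusted p = 0.0202). Epha2 and Epha7 were called in neither comparison under either scaling. Over the 11 Eph receptors, 7 were higher and 0 lower in nerve cells as deposited, against 49.7% and 14.9% of all genes, and 4 and 1 after cyclic loess, against 22.4% and 25.6%. In SKP-derived cells 4 were higher and 1 lower, against 19.3% and 22.3%, and 3 and 1 after cyclic loess, against 18.6% and 23.9%.

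Of the ligands of these receptors, Efnb2 was lower in both Schwann cell groups. It encodes a transmembrane ephrin that binds EphB receptors and measured 5.79, 6.28 and 5.93 in nerve cells, 4.82, 6.78 and 5.81 in SKP-derived cells, and 8.99, 8.65 and 8.78 in SKPs. SKP-derived array 2 was again the highest of its group, and the SKP arrays were close together. The differences were -2.81 (SE 0.40, limma adjusted p = 0.000318) and -3.003 (SE 0.40, adjusted p = 0.000342), so that Efnb2 was 9.89-fold and 8.25-fold lower after cyclic loess. In the same arrays its receptors Ephb1, Ephb2 and Ephb3 lay on the other side of SKPs. Ephb4 was not among the members.

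Efnb1, the related ligand, measured 10.63, 10.58 and 10.79, then 10.49, 9.88 and 10.38, against 10.79, 11.21 and 10.24. It was bright in every group and did not pass as deposited (-0.08, SE 0.25, limma adjusted p = 0.797, and -0.50, SE 0.25, adjusted p = 0.137), while after median centring its nerve difference did (-0.68, adjusted p = 0.0478). Efnb3 measured 6.50, 6.43 and 6.33, then 5.35, 5.05 and 5.47, against 5.17, 5.58 and 5.38. Its nerve difference was 1.05 (SE 0.16, limma adjusted p = 0.000423) as deposited and 0.31 (adjusted p = 0.162) after cyclic loess. The SKP-derived difference of Efnb3 was -0.09 (SE 0.16, limma adjusted p = 0.691). Efna4, held on the membrane by a lipid anchor like the other ephrin-A proteins, measured 8.40, 8.38 and 8.53, then 7.96, 7.79 and 7.92, against 7.61, 7.51 and 7.46. Its nerve difference was 0.91 (SE 0.12, limma adjusted p = 0.000216) and its SKP-derived difference 0.36 (SE 0.12, adjusted p = 0.036). After median centring neither Efna4 difference passed (0.31, adjusted p = 0.0722, and 0.23, adjusted p = 0.175), and leaving out any array but SKP-derived array 2 or SKP array 1 ended the SKP-derived call, with adjusted p up to 0.106. Efna5 measured 5.99, 6.27 and 6.22, then 5.26, 7.66 and 5.78, against 6.38, 5.97 and 5.75, and passed in neither comparison (0.12, SE 0.50, limma adjusted p = 0.842, and 0.20, SE 0.50, adjusted p = 0.777). Without SKP-derived array 2 the SKP-derived difference of Efna5 was -0.52 (adjusted p = 0.105). Efna1, with 1 coding gene between it and Efna4, was called in nerve cells as deposited only (0.71, limma adjusted p = 0.00454, against 0.24, adjusted p = 0.233). Efna2 was called in neither comparison.

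Robo1 and Robo2, receptors of the Slits, were lower than SKPs in both Schwann cell groups. Robo2 measured 5.85, 6.28 and 5.69 in nerve cells, 5.68, 8.23 and 5.91 in SKP-derived cells, and 9.99, 10.21 and 10.39 in SKPs. SKP-derived array 2 was far above every other Schwann cell array and still below the SKP arrays. The differences were -4.26 (SE 0.56, limma adjusted p = 0.000209) and -3.59 (SE 0.56, adjusted p = 0.00082), and without SKP-derived array 2 the latter was -4.40 (adjusted p = 4.36e-06). Robo1, with 1 coding gene between it and Robo2, measured 6.46, 7.55 and 6.30, then 5.98, 7.25 and 6.29, against 9.59, 9.85 and 9.39. In both Schwann cell groups array 2 was the highest for Robo1. The differences were -2.84 (SE 0.38, limma adjusted p = 0.00024) and -3.10 (SE 0.38, adjusted p = 0.000222).

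Robo3 and Robo4 were dim and were called higher in nerve cells (1.04, SE 0.14, and 1.05, SE 0.12, limma adjusted p = 0.000214 and 9.71e-05). After cyclic loess the differences were 0.34 and 0.31 (adjusted p = 0.0432 and 0.047), and Robo3 no longer passed after quantile normalization (0.33, adjusted p = 0.0548). In SKP-derived cells they were 0.32 (SE 0.14) and 0.20 (SE 0.12), limma adjusted p = 0.0855 and 0.197. After cyclic loess those were 0.29 and 0.09 (adjusted p = 0.0861 and 0.554). Robo4, a receptor known from blood vessel endothelium, measured 6.29, 6.20 and 6.20, then 5.36, 5.46 and 5.32, against 5.15, 5.09 and 5.28. On the same deposited scale the 7 measured endothelial markers averaged 5.95 to 6.06 on the nerve arrays, 5.15 to 5.44 on the SKP-derived arrays and 5.07 to 5.41 on the SKP arrays. In nerve cells 5 of these 7 were called higher and 0 lower, against 49.7% and 14.9% of all genes. After cyclic loess they averaged 5.55 to 5.65, 5.45 to 5.61 and 5.40 to 5.66, with 2 higher and 1 lower, against 22.4% and 25.6%. Their part in the Robo4 value was not tested. Of the ligands, Slit3 measured 8.26, 9.21 and 8.42, then 8.03, 9.69 and 8.56, against 9.14, 8.65 and 10.04, and passed in neither comparison (-0.65, SE 0.47, limma adjusted p = 0.249, and -0.52, SE 0.47, adjusted p = 0.407). Slit1 was called in nerve cells as deposited only (0.68, limma adjusted p = 0.0111), and its difference was -0.03 after cyclic loess.

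Netrin-1 and its receptor Unc5b were both lower in Schwann cells. Ntn1, the founding netrin, measured 7.09, 7.10 and 7.08 in nerve cells, 6.26, 6.60 and 6.40 in SKP-derived cells, and 10.50, 10.19 and 7.25 in SKPs. SKP array 3 lay almost at the level of the nerve arrays, far below the other SKP arrays. The differences were -2.22 (SE 0.69, limma adjusted p = 0.0175) and -2.89 (SE 0.69, adjusted p = 0.00811). Without SKP array 1 or 2 the nerve difference of Ntn1 no longer passed (-1.63, adjusted p = 0.0648, and -1.78, adjusted p = 0.0696), and without SKP array 3 it was -3.25 (adjusted p = 3.49e-06).

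Unc5b measured 7.13, 7.26 and 7.56, then 7.02, 7.58 and 6.96, against 9.62, 9.51 and 10.94, with SKP array 3 the highest here. Its differences were -2.71 (SE 0.35, limma adjusted p = 0.000206) and -2.83 (SE 0.35, adjusted p = 0.000238). Unc5c measured 6.46, 6.99 and 5.95, then 5.87, 6.33 and 5.34, against 6.76, 6.31 and 6.59, and did not pass as deposited (-0.09, SE 0.30, limma adjusted p = 0.811, and -0.71, SE 0.30, adjusted p = 0.0913), while after median centring the SKP-derived difference of Unc5c did (-0.84, adjusted p = 0.0425). Unc5a was called higher in nerve cells as deposited (0.62, limma adjusted p = 0.00373) and lay at -0.09 after cyclic loess. Ntn3 and Ntn5 were higher in nerve cells under both scalings (0.92 and 1.22, limma adjusted p = 0.00112 and 0.000443, and 0.43 and 0.49, adjusted p = 0.0499 and 0.0391, after cyclic loess). The nerve call of Ntn3 ended after median centring (0.31, adjusted p = 0.183) and quantile normalization (0.41, adjusted p = 0.0617). Ntn3 was called in SKP-derived cells as deposited only (0.47, limma adjusted p = 0.0472). After cyclic loess its SKP-derived difference was 0.43 (adjusted p = 0.0552), close to its nerve difference. The deposited call held without SKP-derived array 2 or without SKP array 3 but was lost without any of the other arrays.

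The 2 kinds of Schwann cell were then compared with each other, the question being how closely the skin-derived cells resemble those of the nerve. As deposited, 0 members were higher and 17 lower in SKP-derived than in nerve Schwann cells, 32.1% lower, against 1.33% of all genes higher and 42.3% lower. The median member difference was -0.44, close to the -0.45 of the median gene. After cyclic loess 0 members were called in either direction, against 0.731% of all genes higher and 0.600% lower. At an unadjusted p under 0.05, 0 members were higher and 5 lower in limma after cyclic loess, and 0 and 19 as deposited. Leaving out a nerve array brought the 17 members down to 10 (without array 3) or 11 (without array 1 or array 2). Median centring and quantile normalization also called 0 members, with smallest adjusted p-values of 0.0579 (Efnb3) and 0.0543 (Ephb3).

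Sema3e, Sema4f, Ephb3 and Nrp1 had the lowest differences after cyclic loess. Sema3e gave -1.73 as deposited (SE 0.47, limma adjusted p = 0.0178) and gave -1.24 after cyclic loess (95% interval -2.32 to -0.16, adjusted p = 0.197). Sema4f gave -1.69 (SE 0.43, limma adjusted p = 0.0139), then -1.18 (95% interval -2.16 to -0.21, adjusted p = 0.177). Ephb3 gave -1.01 (SE 0.19, limma adjusted p = 0.00431), then -0.70 (95% interval -1.08 to -0.33, adjusted p = 0.0741). Nrp1 gave -0.97 (SE 0.17, limma adjusted p = 0.00358), then -0.63 (95% interval -1.06 to -0.19, adjusted p = 0.127). For Ephb3 and Nrp1 the nerve and SKP-derived arrays did not overlap under either scaling. The same held for other members, among them Efna4, Efnb3, Nrp2, Ntn1, Plxna3 and Robo4. How many of all genes did so was not counted. Efnb3 (-1.13, limma adjusted p = 0.00215) and Robo4 (-0.85, adjusted p = 0.00215) had the smallest adjusted p-values as deposited and gave -0.51 and -0.22 after cyclic loess (adjusted p = 0.146 and 0.311). The Sema4f call as deposited was lost without nerve array 3 (-1.40, adjusted p = 0.0533), and the Sema3e call without SKP-derived array 3 (adjusted p = 0.0591), while without nerve array 3 the Sema3e difference was -1.16 (adjusted p = 0.0408).

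At the other end, Robo2 (0.67, SE 0.56, limma adjusted p = 0.345, and 1.05, adjusted p = 0.358, after cyclic loess) and Ephb1 (0.39, SE 0.49, adjusted p = 0.533, and 0.82, adjusted p = 0.39) were higher in the SKP-derived mean without passing. Without SKP-derived array 2 the Robo2 difference was -0.14 (adjusted p = 0.6). After cyclic loess 50 of the 53 differences were under 1 in size. Of the 5 members farthest from SKPs after cyclic loess, the differences between the Schwann cell groups were -0.06 for Plxnb3 (95% interval -0.57 to 0.45), 0.22 for Sema3a (95% interval -0.35 to 0.79), -0.31 for Sema3b (95% interval -1.09 to 0.48), 0.60 for Sema3d (95% interval -1.04 to 2.24) and the 1.05 of Robo2 (95% interval -0.28 to 2.38). The intervals of Sema3d and Robo2 were the wider ones, and SKP-derived array 2 was the highest of its group for both genes. Ephb2 gave 0.05 (95% interval -0.47 to 0.57). A difference that did not pass does not show that the groups were alike, and these intervals give what the arrays allow.

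**Figure D3:**
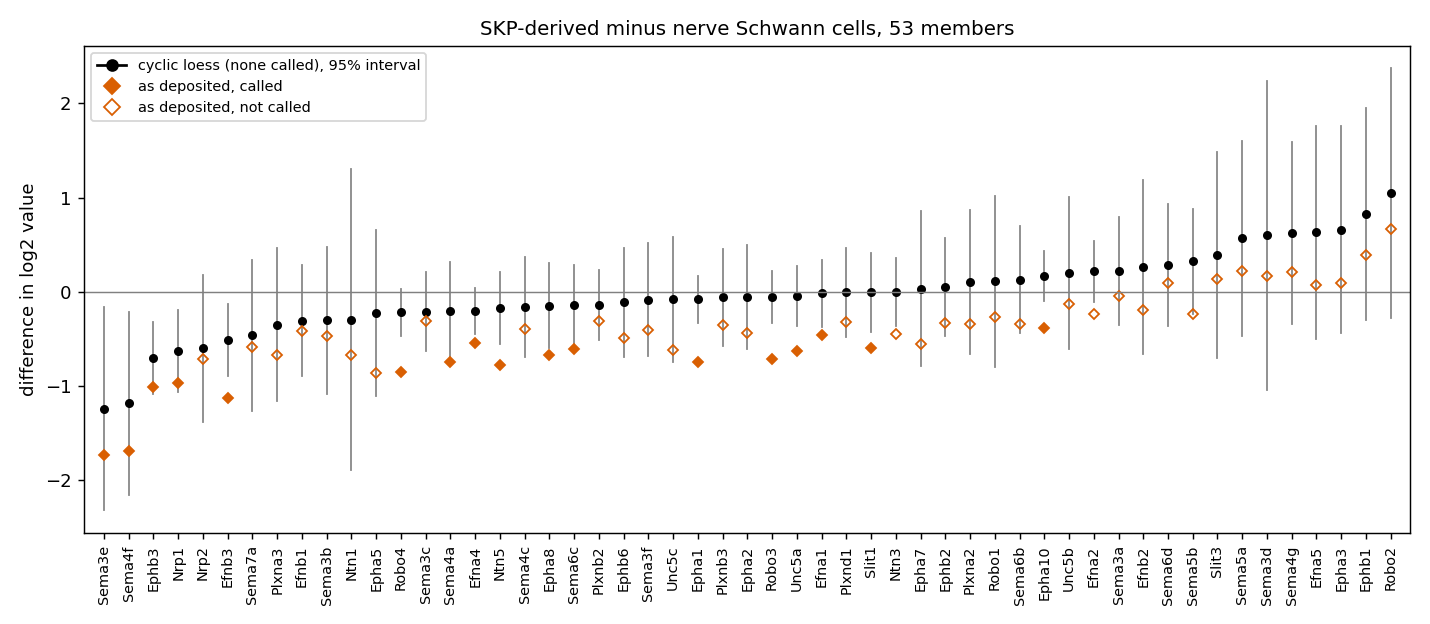
Difference in log2 value, SKP-derived minus nerve Schwann cells (vertical axis), for the 53 members in order of the value after cyclic loess (horizontal axis). Circles with bars are values after cyclic loess with their 95% interval, and diamonds are values as deposited, filled for the 17 that were called. The order runs from Sema3e at -1.24 to Robo2 at 1.05, and the deposited values lie below the circles.

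Other genes of guidance signalling were taken from a list of 59 co-receptors, further cues and intracellular effectors, of which 53 were measured. As deposited, 31 were higher and 4 lower in nerve cells than in SKPs, where 49.7% of all genes were higher and 14.9% lower, and after cyclic loess 20 and 10 were, against 22.4% and 25.6%. In SKP-derived cells 16 were higher and 11 lower, against 19.3% and 22.3% of all genes, and 15 and 14 after cyclic loess, against 18.6% and 23.9%. The list's median difference was 0.55 for nerve cells (0.21 after cyclic loess) and 0.21 for SKP-derived cells (0.10), against the medians of all genes given above. Between the Schwann cell groups 0 were higher and 17 lower as deposited, against 42.3% of all genes lower, with 0 called after cyclic loess. Adgrl3, an adhesion receptor of the latrophilin family, was 5.58 (SE 0.20, limma adjusted p = 2.75e-07) higher in nerve cells and 4.63 (SE 0.20, adjusted p = 9.27e-07) higher in SKP-derived cells. Flrt3, a membrane protein that binds latrophilins and Unc5 receptors, was 3.31 (SE 0.33, limma adjusted p = 5.07e-05) and 3.51 (SE 0.33, adjusted p = 4.82e-05) higher. The collapsin response mediator Dpysl5 was 4.46 (SE 0.31, limma adjusted p = 8.59e-06) and 4.04 (SE 0.31, adjusted p = 1.52e-05) higher, whereas its relative Dpysl3 gave -1.94 (SE 0.52, adjusted p = 0.0089) and -2.73 (SE 0.52, adjusted p = 0.00257).

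The labelled cell types were checked against marker genes. All 8 measured of 10 Schwann cell markers were higher than in SKPs in both Schwann cell groups, and after cyclic loess their mean was 11.15 to 11.32 on the nerve arrays, 10.50 to 11.45 on the SKP-derived arrays and 5.52 to 5.75 on the SKP arrays. Of 10 dermal mesenchyme markers, 0 were higher and 7 lower than in SKPs in each group. Their mean was 8.26 to 9.42 on the nerve arrays and 12.14, 12.07 and 10.03 on SKP arrays 1 to 3. On the SKP-derived arrays it was 7.81, 10.07 and 8.80, so SKP-derived array 2 and SKP array 3 met at the same level. Macrophage markers (10 measured) averaged 8.12 on SKP array 1 and 6.03 to 6.49 on the other SKP arrays, against 5.60 to 5.79 on all Schwann cell arrays. Neuron markers (8) averaged 6.66 on SKP-derived array 2 and 6.83 on SKP array 3, against 5.82 to 6.14 on the others. Smooth muscle and pericyte markers (7) ranged from 6.51 to 7.14 and endothelial markers from 5.40 to 5.66. Perineurial markers (4) averaged 9.14 on nerve array 2 and 8.97 on SKP-derived array 2, against 7.68 to 8.27 elsewhere. Melanocyte markers (4 of 6 measured) ranged from 5.46 to 7.05, and keratinocyte markers (3 of 6) from 6.45 to 7.20 on the Schwann cell arrays and 5.69 to 5.90 on the SKP arrays. In such bulk samples, fewer cells of a type and less RNA per cell cannot be told apart.

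Over all genes, SKP-derived array 2 correlated 0.968 with each of its partners, which correlated 0.984 with each other. SKP array 3 correlated 0.955 and 0.964 with SKP arrays 1 and 2, which correlated 0.983 with each other. The share of all genes with the positions counted below was not determined, so the counts are not shown to be particular to the members. Of the 11 members lower than SKPs in both Schwann cell groups, 9 had SKP-derived array 2 as the highest of its group and between its partners and the SKP arrays (10 after cyclic loess). Of the 8 higher members, 7 had it as the lowest of its group, again between its partners and the SKP arrays (6 after cyclic loess). After cyclic loess the 11 lower members averaged 6.90, 8.03 and 7.08 on SKP-derived arrays 1 to 3 and 7.03, 7.39 and 6.98 on the nerve arrays. The SKP arrays averaged 10.24, 10.37 and 10.09 for these members. SKP array 3, low on the mesenchyme markers, was not low on these members as a set, although it was for Ntn1. The members were chosen for lying higher in SKPs, and a gene low on 1 SKP array would tend to miss that call. Their mean therefore cannot show whether they follow the mesenchyme markers. The part of mesenchymal RNA in these values was not tested. With both SKP-derived array 2 and SKP array 3 left out, all 19 shared members kept their direction and their call in both comparisons. This cannot decide the part of mesenchymal RNA, because the 19 were chosen as called on these same data. The arrays left out were also those where the groups met on the mesenchyme markers.

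**Figure D4:**
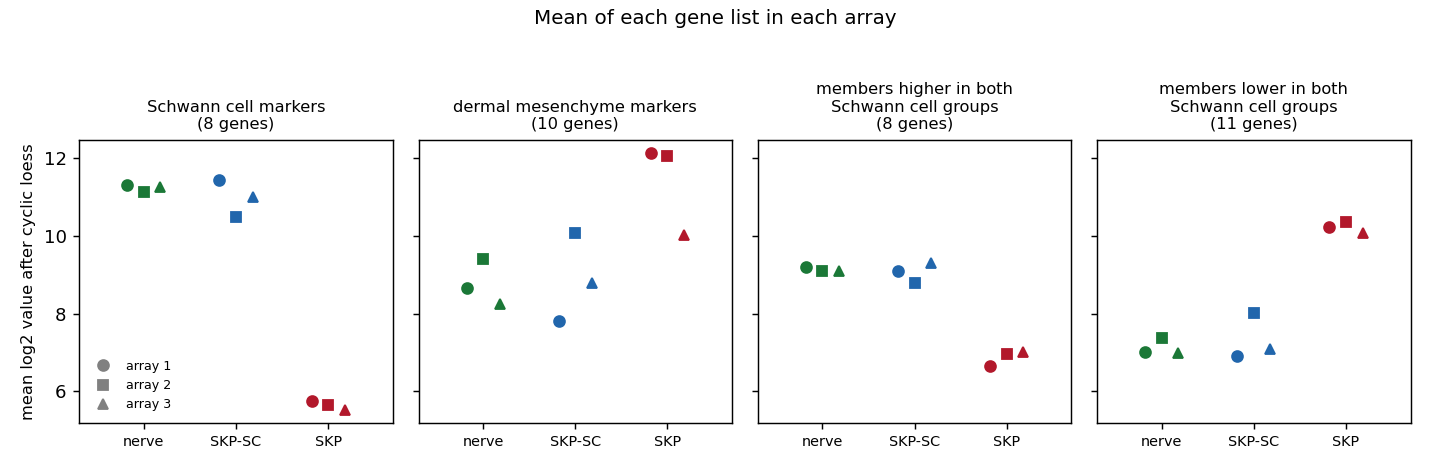
Mean log2 value after cyclic loess (vertical axis) of 4 gene lists in each array, by group (horizontal axis: nerve, nerve Schwann cells; SKP-SC, SKP-derived Schwann cells; SKP), with the array number as the point's shape. On the dermal mesenchyme markers SKP-derived array 2 (10.07) and SKP array 3 (10.03) meet, whereas on the 11 lower members they stay apart (8.03 and 10.09). The 11 were chosen for being lower in Schwann cells than in SKPs, so a gap there was built into the choice.

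Of the 19 members called in both comparisons, 15 were called in the same direction in both under all 18 settings that kept every gene, which were the other scalings, fits and omissions of arrays. These were Sema3b, Plxnb3, Ephb1, Ephb2 and Ephb3 among the higher members, and all of the lower members except Ntn1. Sema4c, Plxnd1, Efna4 and Ntn1 each lost a call under at least 1 setting. The cyclic loess setting could not end a call here, because the 19 were chosen as called under it. How often other genes with the same joint calls kept them was not counted, so the 15 are not shown to be unusually stable.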

How the data were processed

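Total RNA of 9 cultured samples was measured on Rat Gene 1.0 ST arrays (Affymetrix), 3 for each group. The log2 values deposited by the authors were used as given; the submitters' processing notes name RMA and the program Affymetrix Expression Console, and neither a version nor a genome build is given in the sources used here. Of 29214 features, 15310 named 1 gene, 323 several and 13581 none; the brightest feature of each gene was kept, which left 14506 genes. With R 4.3.3 and limma 3.58.1, lmFit and eBayes were run on all 9 arrays with no covariate, and genes were called at a 2-sided Benjamini-Hochberg adjusted p under 0.05. The fit was tested on simulated data.

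Groups came from the sample titles. The same fit was repeated after median centring, cyclic loess and quantile normalization, and under the other settings of the closing section. The members, the gene lists and the marker lists were chosen with earlier results of these data known. Array values and differences from SKPs were given for the 6 called members that rose most and the 6 that fell most in each comparison. They were also given for 24 fixed members, of which 20 were measured and some were among those already ranked. Outside that rule, Plxnd1, Plxnb2, Efna4 and Epha8 were chosen after their values were seen. From the other lists, at most 4 called genes of largest difference were named. RefSeq (GRCr8) matched 52 members by Entrez ID, all with the same symbol, and served for promoter windows and gene order only.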

Additional observations from a re-analysis of the deposited data

Results flagged for a closer look

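Nrp1, the neuropilin-1 co-receptor, had means on opposite sides of SKPs in the 2 Schwann cell comparisons as deposited, but its nerve difference was not called (0.33, limma adjusted p = 0.112). After median centring the nerve difference was -0.27, on the same side as SKP-derived cells (-0.77), so the opposite sides depended on the scaling. Its nerve values (8.25, 8.62 and 8.34) had a mean above that of SKPs (8.09, 8.25 and 7.87), and all of its SKP-derived values (7.50, 7.62 and 7.18) lay below every SKP value. The direct test of that difference, SKP-derived minus nerve, gave -0.97 (limma adjusted p = 0.00358) with all 3 SKP-derived arrays below all 3 nerve arrays. After cyclic loess the difference was -0.63 (adjusted p = 0.127), and nerve cells and SKPs then differed by 0.02 and overlapped.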

How the results depend on the processing

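The 26 members higher in nerve cells than in SKPs became 13 after median centring, 16 after cyclic loess, 14 after quantile normalization, 9 among genes at or above the median level, and 15 with cyclic loess and SKP-derived array 2 left out together. The 11 members higher in SKP-derived cells became 7 after median centring and 7 when only the 2 groups compared were fitted, and the 16 lower became 10 among genes at or above the median level. Of the 17 members lower in SKP-derived than in nerve cells, 0 were left after median centring, cyclic loess, quantile normalization, or cyclic loess without SKP-derived array 2, and 3 among genes at or above the median level; with both SKP-derived array 2 and SKP array 3 left out, 1 member was higher (Sema4g). The last 2 alternatives, which leave out those arrays, were chosen after seeing the data. In that last one Efna5 reversed, to -0.66 (limma adjusted p = 0.0426) against SKPs and -0.64 (adjusted p = 0.0305) against nerve cells; the cause was not tested.

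Leaving out each array in turn gave 24 to 27 members higher and 10 to 13 lower in nerve cells, 6 to 11 higher (6 without SKP-derived array 1) and 13 to 16 lower in SKP-derived cells, and 0 higher and 10 to 24 lower (10 without nerve array 3) between the Schwann cell groups. With 3 arrays a group, a value near its SE cannot be told from 0.

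Whether the replicate numbers pair the samples was not settled. Between groups, same-numbered deviations correlated from -0.12 to 0.29, and differently numbered ones from -0.27 to 0.18. Only SKP-derived array 1 with SKP array 1 was below 0 among the same-numbered pairs. With the replicate block, 26 members were higher and 11 lower in nerve cells, 9 and 15 in SKP-derived cells, and 0 and 14 between the Schwann cell groups. Over the 29 members that the naming rule selects, of 541 alternative values a comparison, 15 lost a call, 1 gained one, 15 changed sign with no call under either setting and 0 reversed in nerve cells against SKPs. In SKP-derived cells against SKPs, 14 lost a call, 9 gained one, 5 changed sign uncalled and 1 reversed. In SKP-derived against nerve cells, 26 lost a call, 12 gained one, 48 changed sign uncalled and 1 reversed.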
